A study of Mus musculus with 12 samples.

Results

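The transcripts of 8 inhibitory receptors of T cells (Pdcd1, Ctla4, Lag3, Havcr2, Tigit, Cd160, Btla and Cd200) were followed in donor OTII cells, CD4+ T cells that carry a transgenic T-cell receptor for an OVA peptide. The genes were chosen by symbol as a group of known inhibitory receptors, with earlier results of these data known. All 8 were among the 40840 genes listed in the count files and among the 13570 genes tested. Naïve OTII cells were transferred into congenic B6 recipients that were WT or Il6-/-, the recipients were sensitized intranasally with HDM, LPS and OVA, and the donor cells were sorted from the mediastinal lymph nodes (mLNs) on Day 3 or Day 5. This gave 4 groups (WT Day 3, Il6-/- Day 3, WT Day 5 and Il6-/- Day 5) with 3 replicates each. Recipients, not the donor T cells, lacked Il6, so the T cells of all 4 groups carried the same alleles. The labels give blood as the tissue and leave out LPS, and the series counts its days from another start than the paper, so the tissue and treatment given here follow the paper and the days follow the labels. Neither the age of the mice nor the number of animals behind a replicate was stated, and p-values therefore measure the spread between these libraries, which may be technical.

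The reads counted on genes numbered 16125947 to 26111657 in a library, with a median of 19727354. The 12 T-cell markers Cd3e, Cd3d, Cd3g, Cd4, Cd5, Cd28, Lck, Zap70, Cd247, Thy1, Cd44 and Lat summed to 6825 to 11679 CPM (counts scaled to a common library size, after TMM scaling) in every library, and none was under 1 CPM in any group. The sums differed between groups: 7247 to 7990 (WT) and 6825 to 6971 (Il6-/-) on Day 3, and 11503 to 11679 and 10248 to 11120 on Day 5. Because the RNA is that of a sorted population, more cells with a transcript and more transcript per cell cannot be told apart in any of the values below.

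Inhibitory receptors restrain T cells that have already been activated, and most of them appear on the cell surface only after the antigen receptor has been engaged. PD-1 (Pdcd1), BTLA and TIGIT carry tyrosine motifs in their tails that recruit phosphatases, whereas CTLA-4 mainly removes CD80 and CD86 from antigen-presenting cells and thereby denies them to the costimulatory receptor CD28. Several of the receptors are also surface features of T follicular helper (Tfh) cells, which help B cells in germinal centers and whose early differentiation is promoted by IL-6 through STAT3. Each inhibitory receptor has a ligand on neighbouring cells: PD-L1 and PD-L2 for PD-1, MHC class II for LAG-3, galectin-9 among others for TIM-3 (Havcr2), CD155 (Pvr) for TIGIT and HVEM (Tnfrsf14) for both BTLA and CD160. CD200 is grouped with the receptors here but is itself a ligand, which inhibits cells that carry its receptor CD200R.

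In the GENCODE vM39 annotation of GRCm39, the 8 genes lie on 5 chromosomes, and 3 of them share chromosome 16. Tigit lies at chr16:43469100-43484509 on the minus strand, Btla at chr16:45044475-45078033 on the plus strand and Cd200 at chr16:45202470-45229594 on the minus strand. Pdcd1 (chr1:93966027-93980312, minus) and Ctla4 (chr1:60926159-60954991, plus) are both on chromosome 1. Lag3 is at chr6:124881320-124888765 (minus), Havcr2 at chr11:46345673-46374149 (plus) and Cd160 at chr3:96706079-96736667 (minus). The exons of Cd160 share 68 bases with an exon of Pdzk1, which is also a counted gene, and since counting disregarded strand the Cd160 values are uncertain to that extent. The exons of the other 7 genes overlapped no other counted gene.

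The 250 bases before the start of the canonical transcript of the annotation are shown for Tigit and Btla, the genes whose transcripts differed between recipients, and for Cd160, whose upstream sequence alone held a STAT motif. The sequences come from GRCm39, are written 5′ to 3′ on the strand of the gene, and cover chr16:43484510-43484759 (minus), chr16:45044225-45044474 (plus) and chr3:96721849-96722098 (minus). The canonical start of Cd160 lies within the span given above, which also takes in transcripts that start further upstream. Capitals mark matches, on either strand, to the letters of a STAT element (TTCNNNGAA), an AP-1 element (TGANTCA) or an NFAT core (GGAAA).
Tigit: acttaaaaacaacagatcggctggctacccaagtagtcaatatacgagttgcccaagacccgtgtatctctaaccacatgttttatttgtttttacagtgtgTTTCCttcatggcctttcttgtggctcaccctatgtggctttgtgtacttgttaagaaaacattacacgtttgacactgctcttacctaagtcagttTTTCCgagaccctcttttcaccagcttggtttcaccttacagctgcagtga
Btla: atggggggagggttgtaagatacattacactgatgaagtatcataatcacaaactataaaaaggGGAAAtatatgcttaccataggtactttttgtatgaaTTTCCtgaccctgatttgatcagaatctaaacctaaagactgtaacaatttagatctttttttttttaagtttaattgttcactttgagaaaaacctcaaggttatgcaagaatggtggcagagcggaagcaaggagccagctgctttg
Cd160: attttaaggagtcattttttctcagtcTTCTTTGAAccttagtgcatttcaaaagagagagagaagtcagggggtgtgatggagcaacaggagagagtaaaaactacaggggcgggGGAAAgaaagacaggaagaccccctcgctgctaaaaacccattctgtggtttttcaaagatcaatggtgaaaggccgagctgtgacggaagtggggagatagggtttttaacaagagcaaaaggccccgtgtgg
Over the promoters of 21736 protein-coding genes, 7.7% held the STAT letters, 6.2% the AP-1 letters and 58.0% the NFAT letters. Among the 8 genes, 1 held a STAT match (Cd160, beginning 223 bases before the start), 2 held an AP-1 match (Havcr2 at 115 bases and Cd200 at 80 bases) and 6 held an NFAT match. The NFAT matches of Tigit began 148 and 51 bases before the start, and those of Btla 186 and 149 bases. A match describes the letters of this window only, and no binding was measured.

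To compare the levels of different genes, CPM were divided by the exon length in kilobases. Pdcd1 stood highest in all 4 groups, at 126 (WT) and 135 (Il6-/-) CPM per kb on Day 3 and at 98.6 and 138 on Day 5, where in WT recipients its libraries overlapped with those of Cd200. Havcr2 stood lowest in all 4 groups, between 0.0652 and 0.783 CPM per kb. In WT recipients on Day 3, Pdcd1 was followed by Ctla4 (56.7), Tigit (51.0) and Cd200 (45.3), 3 neighbours whose libraries overlapped, then by Btla (38.3), and far below by Lag3 (5.22) and Cd160 (3.55), which also overlapped. Tigit had another place in the Il6-/- group of Day 3: at 7.29 CPM per kb it lay below Btla (29.4) with no overlap and above Lag3 (3.88). On Day 5, Cd200, Ctla4, Tigit and Btla formed a group of overlapping neighbours in both genotypes, from 46.3 to 82.6 CPM per kb in WT and from 53.0 to 78.9 in Il6-/- recipients. Below them, in both genotypes, came Lag3 (19.4 and 13.6), Cd160 (11.7 and 8.70) and Havcr2, each without overlap with its neighbours in rank. In WT recipients, however, Tigit overlapped with Lag3, since its lowest library (16.6) lay below the lowest of Lag3 (16.8).

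**Figure D1:**
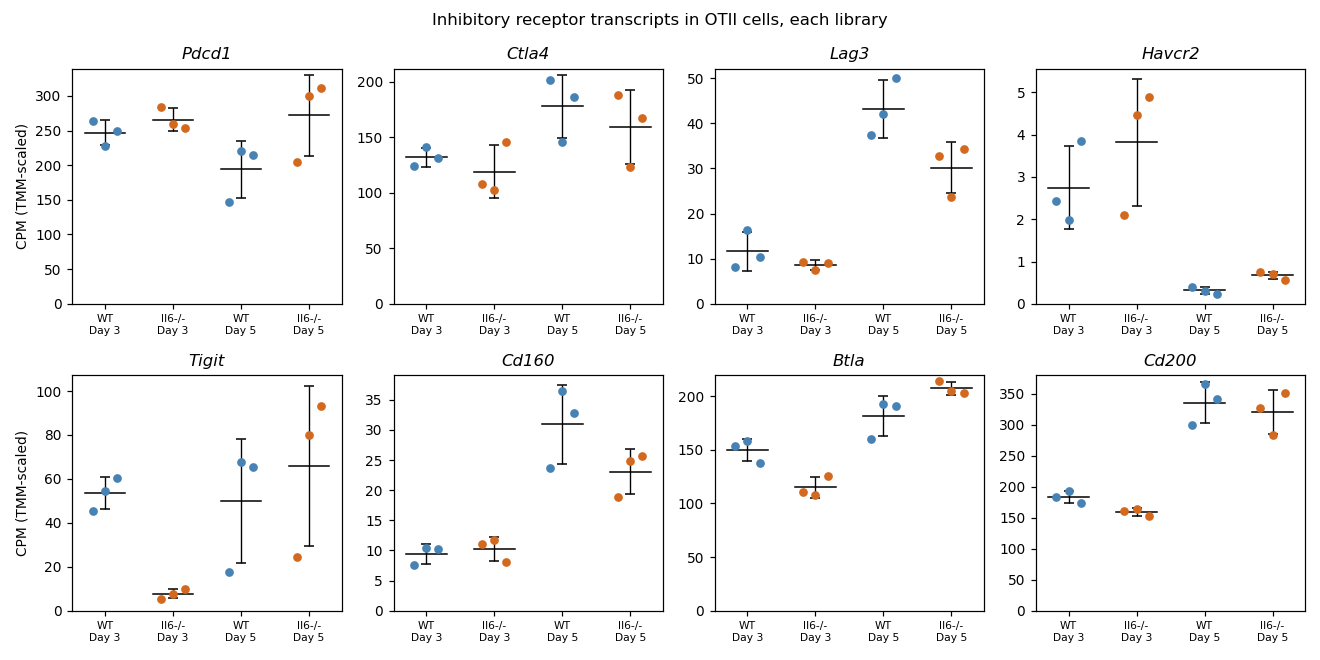
CPM (TMM-scaled, linear axis from 0) of the 8 genes in each of the 12 libraries, by recipient genotype and day; points are replicates 1 to 3 from left to right, the horizontal line is the mean and the bar 1 SD. Tigit is between 5.54 and 9.67 CPM in the Il6-/- libraries of Day 3 and between 45.6 and 60.2 in the WT libraries, and the Day 5 libraries numbered 1 are the lowest of their group for Tigit, Pdcd1 and Cd160 in both genotypes.

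To find out which receptors differ when T cells are primed without recipient IL-6, Il6-/- and WT recipients were compared on Day 3. Tigit, an inhibitory receptor that competes with the costimulatory CD226 for CD155, was 6.96-fold lower and Btla 1.30-fold lower in OTII cells from Il6-/- recipients, and the other 6 genes did not pass an FDR of 0.05. The 3 WT libraries had 45.6, 54.7 and 60.2 CPM of Tigit, from 1107 to 1170 reads each, and the 3 Il6-/- libraries had 5.54, 7.74 and 9.67 CPM, from 105 to 204 reads. The lowest WT library was thus far above the highest Il6-/- library. The log2 fold change (log2FC, Il6-/- relative to WT) of Tigit was -2.80 (SE 0.49, 95% interval -3.85 to -1.75, FDR = 0.0016), and tested against a change of 2-fold rather than 0 it did not pass (FDR = 0.084). Btla had 154, 158 and 138 CPM in WT and 111, 108 and 126 CPM in Il6-/- libraries, again without overlap. Its log2FC was -0.38 (SE 0.09, 95% interval -0.58 to -0.19, FDR = 0.011), and the call was lost without WT replicate 2 (FDR = 0.065) and without Il6-/- replicate 1 (0.056) or 2 (0.063).

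Cd200 was the third gene whose Day 3 libraries did not overlap, with 183, 194 and 174 CPM in WT and 161, 164 and 153 CPM in Il6-/- libraries, but its log2FC of -0.21 (SE 0.09) did not pass (FDR = 0.17), except in a fit of the 6 Day 3 libraries alone (-0.23, FDR = 0.017). Pdcd1 was nearly level, at 264, 228 and 249 CPM in WT and 284, 260 and 253 CPM in Il6-/- libraries, with a 95% interval of the log2FC from -0.22 to 0.43. Ctla4 likewise overlapped (124, 141 and 131 against 108, 102 and 146 CPM), with an interval from -0.49 to 0.19. Lag3 had a log2FC of -0.42 (-0.90 to 0.06, FDR = 0.26), Havcr2 of 0.48 (-0.30 to 1.26, FDR = 0.45) and Cd160 of 0.13 (SE 0.20, FDR = 0.75), with overlapping libraries for all of them. These intervals do not show that the levels were alike, and for Havcr2, which had 40 to 71 reads in the WT libraries and 40 to 103 in the Il6-/- libraries, they leave room for changes above 2-fold.

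Of the 8 genes, 2 were lower and 0 higher at FDR < 0.05, against 6.19% lower and 7.52% higher among all genes tested. With a change of at least 2-fold there was 1 (Tigit), against 2.74% of all genes. For 3 of the 8, no library of one genotype lay within the range of the other, against 36.2% of all genes, which is about the same share. The median log2FC of the 8 was -0.18, compared with 0.01 over all genes tested.

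**Figure D2:**
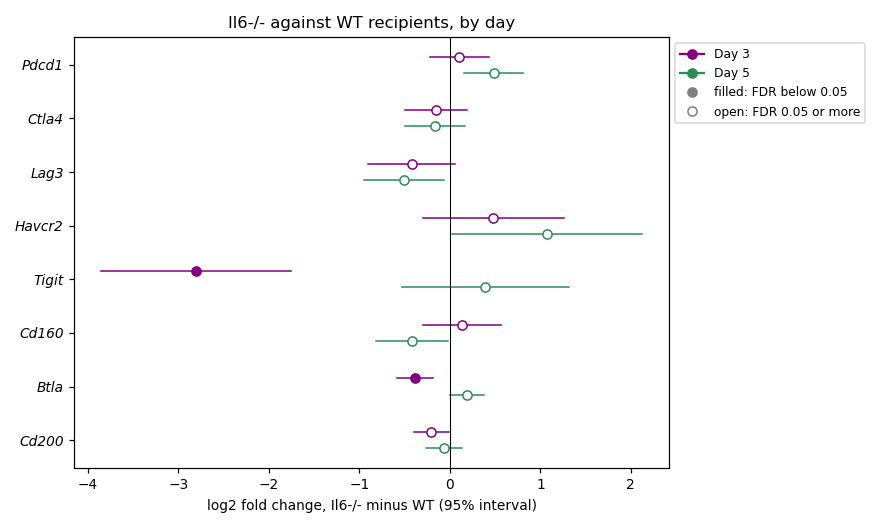
log2FC of the 8 genes, Il6-/- relative to WT recipients, on Day 3 and Day 5 with 95% intervals from the edgeR fit; filled points passed an FDR of 0.05. Only Tigit (-2.80) and Btla (-0.38) on Day 3 are filled, and both have positive values with open points on Day 5 (0.39 and 0.19).

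On Day 5, none of the 8 genes passed the same test, while 5 had an unadjusted p under 0.05. The share of all genes with such a p was not computed. With DESeq2 1 passed (Pdcd1), and with limma-voom 0. Over all 13570 genes, 626 passed in the main fit, 1127 with DESeq2 and 503 with limma-voom. The largest change among the 8 was that of Havcr2 (TIM-3, a receptor linked to terminal activation). Its WT libraries had 0.407, 0.312 and 0.235 CPM and its Il6-/- libraries had 0.741, 0.703 and 0.573 CPM. The groups did not overlap, but the values rest on 5 to 8 and 11 to 14 reads (log2FC 1.07, SE 0.49, FDR = 0.24). Lag3, which binds MHC class II, was at 37.4, 42.0 and 50.0 CPM in WT and 32.7, 23.7 and 34.2 CPM in Il6-/- libraries, also without overlap (log2FC -0.51, SE 0.21, FDR = 0.18). Btla was at 160, 193 and 191 CPM in WT and at 214, 205 and 203 CPM in Il6-/- libraries, so that each Il6-/- library was above each WT library (log2FC 0.19, SE 0.09, FDR = 0.25).

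Pdcd1 had 147, 220 and 215 CPM in the WT libraries of Day 5 and 205, 300 and 311 CPM in the Il6-/- libraries. The groups overlapped through the libraries numbered 1, the lowest of each genotype (log2FC 0.49, SE 0.15, 95% interval 0.16 to 0.81, FDR = 0.085). Tigit had 17.4, 67.5 and 65.2 CPM in WT and 24.5, 79.8 and 93.2 CPM in Il6-/- libraries, and here too the libraries numbered 1 stood far below the others (log2FC 0.39, SE 0.43, FDR = 0.68). Cd160, another partner of HVEM, had a log2FC of -0.42 (SE 0.19, FDR = 0.22), Ctla4 of -0.16 (SE 0.16, FDR = 0.63) and Cd200 of -0.07 (SE 0.09, FDR = 0.75), all with overlapping libraries.

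On this day, libraries with the same number deviated from their group means together over all genes (correlations of 0.24, 0.21 and 0.13 for numbers 1 to 3), although the labels do not say what the number stands for. Between libraries of the same number, Pdcd1 was higher in Il6-/- recipients in 3 of 3 pairs, by 1.39, 1.36 and 1.45 times. Tigit was higher in 3 of 3 pairs, by 1.41, 1.18 and 1.43 times. All 3 pairs also had the same direction for Havcr2 and Btla (higher) and for Ctla4, Lag3 and Cd160 (lower), which makes 7 of the 8 genes. The share of all genes with 3 pairs in the same direction was not computed, so these counts have no baseline. With the number as a block, Pdcd1 passed with a log2FC of 0.49 (FDR = 2.8e-04) and Tigit with 0.41 (FDR = 0.015). This makes 2 of the 8 in place of 0, while over all genes the block called 1592 of 13570 in place of 626. Without the 2 libraries numbered 1, Pdcd1 passed (FDR = 0.011) and was the only one of the 8, beside 530 of 13793 genes tested.

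**Figure D3:**
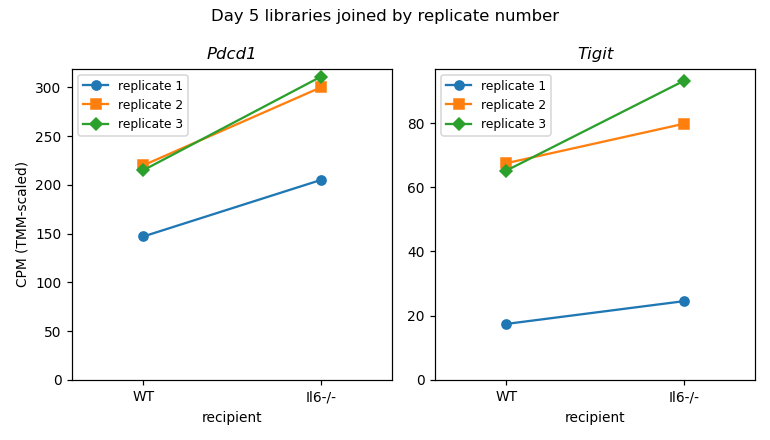
CPM (linear axis from 0) of Pdcd1 and Tigit in the 6 Day 5 libraries, WT on the left and Il6-/- on the right, with a line joining the libraries that carry the same replicate number. All lines go up, from 147 to 205, 220 to 300 and 215 to 311 CPM for Pdcd1, and replicate 1 is lowest throughout.

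The Day 5 counts of 0 higher and 0 lower compare with 1.27% higher and 3.35% lower among all genes tested, and 1.14% of all genes passed with at least a 2-fold change. The libraries did not overlap for 3 of the 8 genes (Lag3, Havcr2 and Btla), against 19.6% of all genes. The median log2FC of the 8 was 0.06, and that of all genes 0.01.

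An interaction term asked whether the recipient genotype acted differently on the 2 days, and was coded as the Day 5 change minus the Day 3 change. Tigit and Btla passed, 2 of 8 against 4.92% of all genes tested. For Tigit the difference was 3.19 on the log2 scale (SE 0.65, 95% interval 1.80 to 4.59, FDR = 0.014), and for Btla it was 0.58 (SE 0.13, 0.30 to 0.85, FDR = 0.021). Both receptors were below WT on Day 3 in the Il6-/- group, and on Day 5 their means were above it without passing. The Btla call was lost without WT Day 3 replicate 2 or Il6-/- Day 3 replicate 2 (FDR = 0.070 for both), without Il6-/- Day 3 replicate 1 (0.061) and without the 2 Day 5 libraries numbered 1 (0.051). The others ranged from -0.55 (Cd160, SE 0.27, FDR = 0.28) to 0.59 (Havcr2, SE 0.61, FDR = 0.64), and Ctla4 (-0.01), Lag3 (-0.09), Cd200 (0.14) and Pdcd1 (0.38, SE 0.22, FDR = 0.34) lay between. With the replicate number as a block, Pdcd1 passed as well (FDR = 0.011), while the block called 1564 of 13570 genes in place of 668.

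From Day 3 to Day 5 most of the receptors changed in both kinds of recipient, and so did most genes tested. In WT recipients 5 of the 8 rose, 1 fell and 2 did not pass, against 29.5% of all genes that rose and 27.1% that fell. In Il6-/- recipients 6 rose, 1 fell and 1 did not pass, against 30.4% and 30.1%. The libraries of the days did not overlap for 7 of the 8 genes in WT recipients (63.3% of all genes) and for 6 of the 8 in Il6-/- recipients (65.8%). The median log2FC (Day 5 relative to Day 3) of the 8 was 0.35 in WT and 0.93 in Il6-/- recipients, compared with 0.09 over all genes in both. Among lists described below, these medians were 0.76 and 0.70 for 13 costimulatory counterparts, and 0.53 and 0.43 for 16 genes listed with other inhibitory receptors. The 12 T-cell markers had 0.43 and 0.58, with 11 rising and 0 falling in both genotypes, and 22 signalling mediators had 0.16 and 0.12. A rise with the day was thus not particular to the 8. The comparisons between days use the same libraries as those between genotypes, and a difference in handling between the days cannot be told apart from the day itself.

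Lag3 rose 3.73-fold in WT recipients, from 8.08, 16.4 and 10.3 CPM on Day 3 to 37.4, 42.0 and 50.0 CPM on Day 5 (log2FC 1.90, SE 0.22, FDR = 3.1e-06). In Il6-/- recipients it rose from 9.35, 7.43 and 9.10 CPM to 32.7, 23.7 and 34.2 CPM (log2FC 1.81, SE 0.22, FDR = 5.1e-06). No Day 3 library reached any Day 5 library. Cd160 rose 3.29-fold in WT recipients, from 7.53, 10.4 and 10.3 CPM to 23.6, 36.4 and 32.8 CPM (log2FC 1.72, SE 0.20), and in Il6-/- recipients from 11.0, 11.7 and 8.06 CPM to 18.8, 24.8 and 25.6 CPM (log2FC 1.17, SE 0.20, FDR = 1.0e-04). Cd200 rose from 184 ± 9.98 to 336 ± 33.2 CPM (SD, n = 3) in WT and from 159 ± 6.01 to 320 ± 35.0 CPM in Il6-/- recipients, with log2FC of 0.87 and 1.01 (SE 0.09 for both).

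Havcr2 was the gene that fell. It dropped from 2.42, 1.98 and 3.85 CPM to 0.407, 0.312 and 0.235 CPM in WT recipients, an 8.51-fold decrease (log2FC -3.09, SE 0.45, FDR = 3.4e-05). In Il6-/- recipients it dropped from 2.11, 4.46 and 4.88 CPM to 0.741, 0.703 and 0.573 CPM (log2FC -2.50, SE 0.41, FDR = 9.3e-05). Its libraries of the 2 days were separate in both genotypes.

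Tigit did not share its course between the genotypes. In Il6-/- recipients it rose 8.57-fold (log2FC 3.10, SE 0.49, FDR = 6.5e-05), and its lowest Day 5 library (24.5 CPM) was above its highest Day 3 library (9.67 CPM). In WT recipients its log2FC was -0.10 (SE 0.43, FDR = 0.86), with Day 5 libraries on both sides of the Day 3 libraries. Btla rose in both, by 0.27 in WT (SE 0.09, FDR = 0.018) and by 0.85 in Il6-/- recipients (SE 0.09, FDR = 1.3e-06). The Btla call in WT recipients was lost without WT Day 3 replicate 3 (FDR = 0.093), WT Day 5 replicate 2 (0.077) or WT Day 5 replicate 3 (0.065).

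Ctla4, the receptor that shares CD80 and CD86 with CD28, rose by 0.43 on the log2 scale in WT recipients (SE 0.16, FDR = 0.030) and by 0.42 in Il6-/- recipients (SE 0.16, FDR = 0.033), but its Il6-/- libraries of the 2 days overlapped. Both calls were lost without the 2 Day 5 libraries numbered 1 (log2FC 0.33 and 0.28, FDR = 0.089 and 0.14). They were also lost without any 1 of 4 libraries in WT (Day 3 replicates 1 and 3, Day 5 replicates 1 and 3, FDR from 0.073 to 0.12) and of 4 in Il6-/- recipients (Day 3 replicates 1 and 2, Day 5 replicates 1 and 3, FDR from 0.092 to 0.16). Pdcd1 was the only gene of the 8 that passed in neither genotype, with a log2FC of -0.35 in WT (SE 0.15, FDR = 0.063) and 0.03 in Il6-/- recipients (SE 0.15, FDR = 0.86). In WT recipients it passed as lower in 10 of the alternatives, among them DESeq2 (-0.38, FDR = 0.033), limma-voom (-0.37, FDR = 0.047) and 4 of the 12 fits without 1 library (FDR down to 0.022).

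**Figure D4:**
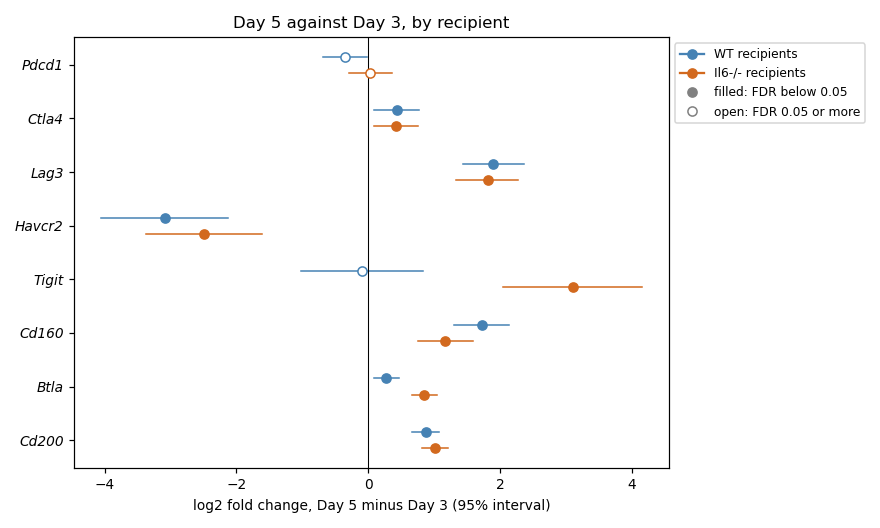
log2FC of the 8 genes, Day 5 relative to Day 3, in WT and in Il6-/- recipients with 95% intervals from the edgeR fit; filled points passed an FDR of 0.05. Lag3, Cd160 and Cd200 are to the right of 0 in both genotypes and Havcr2 to the left (-3.09 and -2.50), while Tigit is at -0.10 in WT and at 3.10 in Il6-/- recipients.

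The ligands of these receptors are carried mainly by antigen-presenting cells, but T cells transcribe some of them too. Of 14 ligand genes 11 could be tested, and in Il6-/- recipients 2 were higher and 1 was lower on Day 3, and 3 were higher and 0 lower on Day 5. For this list and those that follow, the shares over all genes tested were 7.52% higher and 6.19% lower on Day 3, and 1.27% higher and 3.35% lower on Day 5. The median log2FC of the 11 was 0.31 on Day 3 and 0.42 on Day 5, against 0.01 for all genes on both days. Cd86, a shared ligand of CTLA-4 and CD28, had 3.74 ± 0.764 CPM in WT recipients on Day 3 against 24.4 ± 2.74 CPM in Il6-/- recipients (log2FC 2.69, FDR = 7.7e-06). On Day 5, Cd86 had 13.3 ± 3.31 CPM in WT recipients against 33.3 ± 7.90 CPM in Il6-/- recipients (log2FC 1.33, FDR = 0.0025). Cd80, the other shared ligand, was near the limit of detection, with 3 to 18 reads in each library. It did not pass on either day (log2FC 1.01 and 0.62, FDR = 0.44 and 0.70).

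Pdcd1lg2, which encodes PD-L2, was higher in Il6-/- recipients on Day 3 (30.5 ± 1.31 against 19.0 ± 2.81 CPM, log2FC 0.69, FDR = 0.0025) and had a log2FC of 0.42 on Day 5 (FDR = 0.070). Cd274, which encodes PD-L1, was higher on Day 5 (log2FC 0.42, FDR = 0.040, from 46.3 ± 1.37 CPM in WT recipients) and had a log2FC of 0.31 on Day 3 (FDR = 0.077). The ligand of BTLA and CD160 went the same way as Btla on Day 3: Tnfrsf14 was lower in Il6-/- recipients (118 ± 8.99 against 159 ± 6.39 CPM, log2FC -0.43, FDR = 0.0035), and on Day 5 it had a log2FC of -0.17 (FDR = 0.28). Pvr, the main ligand of TIGIT, did not pass on Day 3 (0.29, FDR = 0.11) or Day 5 (0.11, FDR = 0.65), and neither did Cd200r1, the receptor of CD200 (-0.20 and 0.15, FDR = 0.38 and 0.54). Lgals3, a ligand described for LAG-3, was higher on Day 5 (3.51 ± 0.441 against 1.35 ± 0.168 CPM, log2FC 1.38, FDR = 0.040). Nectin2 and Fgl1 had too few reads to be tested.

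Each coinhibitory receptor has costimulatory counterparts, and 13 of the 15 listed could be tested. On Day 3, 4 were higher and 4 lower in Il6-/- recipients, and on Day 5 none passed (median log2FC -0.15 and 0.05). Of the 13, 5 had an unadjusted p under 0.05 on Day 5, and DESeq2 called 2 and limma-voom 0. The share of all genes with such a p was not computed, while DESeq2 called 1127 and limma-voom 503 of 13570 genes. Cd226, which competes with TIGIT for CD155, was higher on Day 3 (93.3 ± 3.70 against 60.8 ± 0.502 CPM, log2FC 0.62, FDR = 2.0e-04), the day on which Tigit was lower, and had a log2FC of 0.23 on Day 5 (FDR = 0.11). Icos was at 301 ± 28.7 CPM in Il6-/- and 618 ± 25.3 CPM in WT recipients on Day 3 (log2FC -1.04, FDR = 9.6e-06) and had a log2FC of -0.12 on Day 5 (FDR = 0.51). Cd28 was lower on Day 3 (330 ± 43.5 against 461 ± 7.33 CPM, log2FC -0.48, FDR = 0.0018) but did not pass on Day 5 (-0.16, FDR = 0.31). Cd27 (-1.19) and Cd2 (-0.34) were also lower on Day 3. The higher ones besides Cd226 were 3 receptors of the TNF receptor family, Tnfrsf4 (OX40, log2FC 0.55), Tnfrsf18 (GITR, 0.41) and Tnfrsf9 (4-1BB, 0.48).

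Genes listed with other inhibitory receptors did not move in 1 direction on Day 3. Not all of them encode inhibitory surface receptors, and Tnfrsf1b and Laptm5 are among those that do not. Of 16 tested, 3 were higher (Ptger4 with a log2FC of 0.70, Cd72 with 0.89 and Tnfrsf1b with 0.39) and 3 were lower in Il6-/- recipients. The lower ones were Vsir, which encodes VISTA (53.5 ± 11.3 against 91.6 ± 2.99 CPM, log2FC -0.77, FDR = 7.4e-04), Laptm5 (-0.24) and Klrc1, which had 0 to 2 reads in each Il6-/- library and 20 to 39 in each WT library. On Day 5, Tnfrsf1b (0.75), Adora2a, an adenosine receptor (0.59), and Entpd1, the ectoenzyme CD39 (1.20), were higher and none was lower. The median log2FC of the 16 was 0.01 on Day 3 and 0.07 on Day 5.

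Of 22 signalling mediators that act below the receptors, 1 was higher and 4 were lower on Day 3. Ptpn11, which encodes the phosphatase SHP-2 recruited by PD-1, was higher in Il6-/- recipients (215 ± 38.1 against 158 ± 23.1 CPM, log2FC 0.44, FDR = 0.029). The lower ones were the phosphatase Ptpn22 (-0.35), the adaptor Dok2 (-0.46), Sh2d1a (SAP, -0.43) and Trat1 (-0.52). On Day 5 only Rasa1 passed, and it was lower (-0.77, FDR = 0.024). The medians of this list, -0.04 and -0.03, were close to the 0.01 of all genes.

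Among 27 transcription factors named for control of inhibitory receptors or of T-cell differentiation, 3 were higher and 8 lower in Il6-/- recipients on Day 3, and 0 were higher and 6 lower on Day 5 (median log2FC -0.16 and -0.02). Tbx21, which encodes T-bet, was at 14.4 ± 2.14 CPM in Il6-/- and 2.56 ± 0.210 CPM in WT recipients on Day 3 (log2FC 2.49, FDR = 8.7e-05). Nr4a3 (1.00) and Bhlhe40 (1.11) were the other higher ones. Tox2, a factor of Tfh cells, was lower on both days (log2FC -2.20, FDR = 7.7e-06 on Day 3 and -0.68, FDR = 0.036 on Day 5). Bcl6, the lineage factor of Tfh cells, was lower on Day 3 (-1.15, FDR = 3.8e-04), along with Egr2 (-0.78), Maf (-0.97) and Tcf7 (-0.32) among others. On Day 5 the lower factors with the smallest p included Id2 (-0.70), Foxo1 (-0.35), Egr3 (-0.52) and Nfatc1 (-0.36).

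Tigit, Pdcd1, Btla and Cd200 are carried by Tfh cells, and a list of other Tfh genes was followed beside them. That list, like the others, was written with earlier results of these data known, so its counts are not independent evidence. Of 17 tested, 8 were lower and 0 higher in Il6-/- recipients on Day 3 (median log2FC -0.49, against 0.01 for all genes), and on Day 5 2 were lower (median -0.05). Il21, the cytokine of Tfh cells, was at 3.80 ± 0.0964 CPM in Il6-/- and 26.8 ± 0.897 CPM in WT recipients on Day 3 (log2FC -2.82, FDR = 8.8e-04), a change of about the size of that of Tigit. Cxcr5, the receptor that leads T cells to the B-cell follicle, had a log2FC of -1.45 (FDR = 7.1e-05), Pou2af1 of -1.25 (FDR = 4.4e-04) and the IL-6 receptor gene Il6ra of -0.49 (FDR = 0.0022). In the interaction 6 of the 17 passed, all of them upward (median 0.91 against 0.00), among them Il21 (2.74, FDR = 0.018), Cxcr5 (1.55), Tox2 (1.52), Bcl6 (1.12) and Icos (0.91). From Day 3 to Day 5, 14 of the 17 rose and 0 fell in Il6-/- recipients (30.4% and 30.1% of all genes), and 7 rose and 2 fell in WT recipients (29.5% and 27.1%). Of the 4 receptors, Tigit and Btla passed on Day 3 and in the interaction, and Pdcd1 and Cd200 passed in neither. Icos, Bcl6, Tox2, Sh2d1a, Cd40lg and Slamf6 also belong to the lists above, so that the counts are not separate observations. The lists of cell markers share genes with these lists as well, among them Tnfrsf18, Foxp3 and Klrc1.

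**Figure D5:**
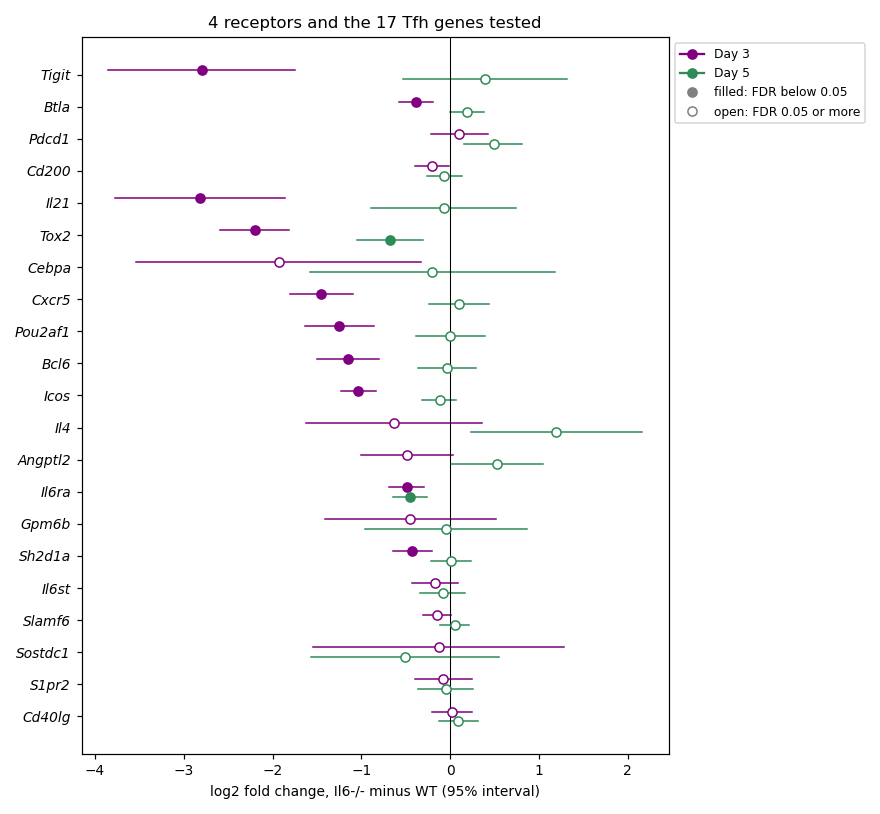
log2FC, Il6-/- relative to WT recipients, on Day 3 and Day 5 with 95% intervals for 4 of the receptors (top) and for the 17 Tfh genes tested, in order of their Day 3 value; filled points passed an FDR of 0.05. The Day 3 points of 8 Tfh genes are filled and to the left of 0, as are those of Tigit and Btla, whereas on Day 5 only Tox2 and Il6ra are filled.

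NK cells, CD8 T cells and regulatory T cells also carry several of these receptors, and their markers were read in the same libraries. Of 17 markers of CD8 T and NK cells, 9 to 11 were under 1 CPM in each group. Most of their sum was Cd8b1, which had 62.7 ± 5.80 to 74.7 ± 10.1 CPM in the 4 groups and did not pass between genotypes (log2FC 0.25, FDR = 0.19 on Day 3 and 0.11, FDR = 0.67 on Day 5). Ncr1 had at most 1 read in any library and Cd8a was at 1.04 ± 0.616 CPM or less. The sum of the list was 70.2 to 84.0 CPM in WT and 107 to 142 CPM in Il6-/- recipients on Day 3, with Nkg7 (22.7 ± 1.37 against 3.67 ± 1.60 CPM, log2FC 2.64) and Klrb1c (2.11) higher and Klrc1 lower. On Day 5 the sums overlapped (99.8 to 120 and 114 to 131 CPM), but 1 marker was higher and 1 lower past the threshold. Nkg7 was at 18.9 ± 5.71 CPM in Il6-/- against 4.99 ± 0.911 CPM in WT recipients. Klrb1c lay in the other direction, at 21.9 ± 2.34 against 33.1 ± 3.15 CPM.

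The 12 markers of regulatory T cells summed to 573 to 633 CPM in WT and 692 to 746 CPM in Il6-/- recipients on Day 3, where 4 were higher (Il2ra, Nrp1, Tnfrsf18 and Il10) and 1 lower (Ikzf2). Foxp3, their defining factor, did not pass on Day 3, with 7.60 ± 2.18 CPM in the WT group and 5.08 ± 1.01 CPM in the Il6-/- group. On Day 5 the sums were 1435 to 1746 and 1231 to 1656 CPM, and their largest part was Izumo1r. Its mean went from 185 on Day 3 to 1035 CPM in the WT group, and from 190 to 745 CPM in the other. Between the days, 7 of the 12 markers rose in WT recipients and 2 fell, Foxp3 (log2FC -1.42, FDR = 0.0033) and Il2ra (-3.15). In Il6-/- recipients 5 rose and only Il2ra fell (-3.68), while Foxp3 did not pass (-0.12, FDR = 0.79). Whether regulatory T cells have a part in the receptor values was not tested. Markers of B cells summed to 440 to 687 CPM, nearly all of it Ighm, while Ms4a1 had at most 6 reads in a library. Of 8 tested, 1 was higher and 1 lower in Il6-/- recipients on Day 3, and 0 passed on Day 5. On Day 3, Cd22 was at 6.61 ± 0.658 CPM in Il6-/- against 0.778 ± 0.533 CPM in WT recipients, and Pax5 at 0.171 ± 0.187 against 0.841 ± 0.0918 CPM. The myeloid and dendritic list summed to 21.3 to 66.4 CPM, with 0 of 13 tested genes past the threshold between genotypes on either day (unadjusted p under 0.05 for 1 on Day 3 and 0 on Day 5, with 1 called by DESeq2 on Day 3). The share of all genes with such a p was not computed, while DESeq2 called 2243 of 13570 genes on Day 3.

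The genes whose log2 CPM were most like those of each receptor over the 12 libraries were ranked by Pearson r, as a description. For Tigit they were Il21 (r = 0.970), C030034L19Rik (0.959) and B230118I11Rik (0.958), and no other receptor had a gene of the Tfh list among its closest 3. Pdcd1 had the least close neighbours, Lancl3 (0.912), Hadh (0.899) and LOC115487878 (0.896), and those of Ctla4 were Selenok (0.960), Kcnh6 (0.944) and Rundc3a (0.927). Lag3 was closest to Lemd2 (0.983), Havcr2 to Ddx46 (0.974), Cd160 to Pdzk1ip1 (0.968), Btla to Zfp677 (0.966) and Cd200 to Coq8a (0.991). The points share day, genotype and library, the libraries of the 2 days stand apart, and for the genes that change with the day the values of r mostly restate that change.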

How the data were processed

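The authors sorted donor OTII cells, sequenced poly(A) RNA as single-end reads, trimmed them (Trim Galore 0.4.4), aligned them to GRCm39 (STAR 2.5.2a) and counted them per gene without strand (HTSeq 0.6.1p1). The deposited values used are raw counts per gene. Each file's 5 rows that name no gene (37.8% to 47.5% of its reads) were left out. A deposited log2 CPM table was not used.

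Counts were fitted in R 4.3.3 with edgeR 4.0.16 (quasi-likelihood F test): filterByExpr kept 13570 genes, libraries were scaled by TMM (factors 0.944 to 1.06), and a single model of the 12 libraries had 1 coefficient for each of 4 groups. The median biological coefficient of variation was 0.132. P values were adjusted over all 13570 genes by the Benjamini-Hochberg method (FDR), a gene passed at FDR < 0.05, and SDs have n = 3. A single gene's exact permutation test could not go below a two-sided p of 0.1. For correlations, 2 prior counts were added before the log2 of the CPM. Every replicate pair of a group differed by more than sampling noise.

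Genotypes were compared within each day, days within each genotype, and the difference as an interaction. Same-numbered libraries of the 2 genotypes deviated together over genes on Day 5 (r = 0.24, 0.21 and 0.13) but not on Day 3 (r = 0.03, 0.06 and 0.03). This pairing rests on the data alone, so the block was an alternative. Other alternatives were DESeq2 1.42.0, limma-voom (limma 3.58.1), other scalings and filters, glmTreat (a test against a 2-fold change), a fit of the groups compared alone, and each library left out. Those without the Day 5 libraries numbered 1, and with a block shared by both days, were added after seeing the data.

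The 8 genes and the gene lists were chosen with earlier results of these data known. The text names all 8, up to 5 genes of each list that passed in each direction with the smallest p, 11 preset ligands and costimulatory receptors, the 3 genes most like each receptor and markers near 0. Exon lengths and promoters came from GENCODE vM39, and the annotation the authors counted with was not used here. Intervals cover only the spread that the model fits.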

Additional observations from a re-analysis of the deposited data

Results flagged for a closer look

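The change between Il6-/- and WT recipients differed between the days for Tigit and Btla by the test of the interaction. For Tigit the log2FC was -2.80 on Day 3 and 0.39 on Day 5, a difference of 3.19 (edgeR, FDR = 0.014), with an FDR from 0.0020 to 0.046 in 11 of the 12 fits without 1 library and of 0.050, at the threshold, without Il6-/- Day 3 replicate 1. For Btla the log2FC was -0.38 and 0.19, a difference of 0.58 (edgeR, FDR = 0.021), which did not pass without WT Day 3 replicate 2, Il6-/- Day 3 replicate 1 or Il6-/- Day 3 replicate 2 (FDR from 0.061 to 0.070).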

How the results depend on the processing

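Of the 8 receptors, 2 passed between genotypes on Day 3, 0 on Day 5 and 2 in the interaction, and 6 and 7 changed between the days in WT and Il6-/- recipients. Against a 2-fold change (glmTreat) 0, 0, 0, 3 and 3 passed, and with an added 2-fold limit 1, 0, 1, 3 and 5. On Day 5, 3 passed without the low-count filter (Pdcd1, Lag3 and Tigit), 1 with DESeq2 (Pdcd1, FDR = 0.021) and 2 with the replicate block. Without both libraries numbered 1, 1 passed on Day 5 and 1 in the interaction. Over all genes, the Day 5 calls were 626 of 13570 in the main fit, 1397 of 25836 without the filter and 1127 of 13570 with DESeq2. They were 1592 of 13570 with the block and 530 of 13793 without the libraries numbered 1. The causes were not tested. Leaving out 1 library gave 1 to 2 on Day 3, 0 to 1 on Day 5 (Pdcd1 passed without Il6-/- replicate 1, log2FC 0.65, FDR = 0.0090) and 1 to 2 in the interaction. Without Il6-/- Day 3 replicate 1, the interaction FDR of Tigit was 0.050, at the threshold, and Btla did not pass, so that count of 1 is borderline. The replicate block on Day 3 changed no member's call, and a block shared by both days added Pdcd1 in WT recipients (log2FC -0.37, FDR = 0.048), as did 9 other alternatives: RLE scaling, no filter, DESeq2, limma-voom, the groups compared alone and 4 fits without 1 library.

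Changes that reversed were all uncalled. For Ctla4 in the interaction they were 0.01 with RLE scaling and DESeq2, 0.02 with upper-quartile scaling and 0.08 without scaling, and leaving out 1 library gave -0.15 to 0.20. For Lag3 in the interaction the value was 0.01 without scaling (-0.43 to 0.12 leaving out 1 library). Tigit between the days in WT recipients was at 0.10 with upper-quartile scaling and 0.31 without both libraries numbered 1 (-0.37 to 0.31). Pdcd1 between the days in Il6-/- recipients was at -0.02 without the filter (-0.07 to 0.20). Leaving out 1 library gave -0.02 to 0.28 for Cd160 on Day 3, and on Day 5 -0.01 to 0.79 for Tigit, -0.14 to 0.04 for Cd200 and -0.30 to 0.02 for Ctla4. Upper-quartile scaling moved the median log2FC of all genes between the days from 0.09 to 0.29 in WT and 0.32 in Il6-/- recipients, and no scaling moved it to 0.14 and 0.24.

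Over all members and alternatives, 868 changes kept direction and side of the threshold, 20 newly passed, 39 no longer passed and 25 reversed. With 5 to 14 reads per library on Day 5, Havcr2 is limited by depth.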
